A study of Mus musculus with 10 samples.

Results

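The 7 genes of the CDK inhibitor families were followed by mRNA level through mouse leukemia cells in which *miR-139* can be switched on. They are *Cdkn1a*, *Cdkn1b* and *Cdkn1c* of the CIP/KIP family and *Cdkn2a*, *Cdkn2b*, *Cdkn2c* and *Cdkn2d* of the INK4 family. The members were chosen by gene symbol, through the Ensembl identifiers of the count table, and make up 7 of its 52550 gene rows. All 7 had at least 10 counts in total, the limit below which a gene would have been called not measured.

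The cells were hematopoietic stem and progenitor cells from the bone marrow of WT C57BL/6 mice aged 8 to 20 weeks, transformed with the MLL-AF9 fusion oncogene. The labels give a single protocol for all 4 groups, worded for MLL-AF9-i139, in which the cells also carry the tetR-KRAB repressor, which holds a lentiviral cassette silent until doxycycline (DOX) is added. In MLL-AF9-i139 the cassette expresses *miR-139*. It was sequenced in 3 clones, each grown from a picked colony, once without DOX and once with DOX at 5 µg/mL, for 48 h in clones 1 and 2 and for 72 h in clone 3. How long the untreated cultures of these clones were grown is not labelled. In MLL-AF9-ieGFP the cassette expresses eGFP, and a single clone was sequenced without and with DOX at 5 µg/mL, at 48 h and at 72 h. The ieGFP libraries are therefore 2 times of 1 clone and not separate clones, and in MLL-AF9-i139 clone 3 and the 72 h treatment cannot be told apart.

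CDK inhibitors are small proteins that bind cyclin-dependent kinases or their cyclin complexes and stop the phosphorylation of the retinoblastoma family that drives cells from G1 into S phase. The CIP/KIP proteins p21 (*Cdkn1a*), p27 (*Cdkn1b*) and p57 (*Cdkn1c*) act on several cyclin and CDK complexes, above all those of CDK2. The INK4 proteins p16Ink4a (*Cdkn2a*), p15 (*Cdkn2b*), p18 (*Cdkn2c*) and p19Ink4d (*Cdkn2d*) bind CDK4 and CDK6 alone, and *Cdkn2a* also encodes p19Arf, which stabilizes p53 through MDM2. In blood formation these genes are known for holding stem cells quiescent and for cell cycle exit as myeloid cells mature, and the *Cdkn2a* and *Cdkn2b* locus is a classical target of Polycomb silencing.

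Because DOX induces *miR-139* in MLL-AF9-i139, the mature strands of that microRNA are shown first, with the seed (bases 2 to 8) in capitals. Both are encoded on the plus strand of chromosome 7, at chr7:101475382-101475403 for the 5p strand and chr7:101475418-101475439 for the 3p strand (RefSeq, GRCm38.p6).
miR-139-5p: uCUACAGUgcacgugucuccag
miR-139-3p: uGGAGACGcggcccuguuggag
The longest annotated 3′ UTR of each member was searched for the letters ACTGTAG (pairing with seed bases 2 to 8) or CTGTAGA (bases 2 to 7 followed by A) of miR-139-5p and for CGTCTCC or GTCTCCA of miR-139-3p. Of the 7 members 3 held a match, and they are shown with the match in capitals and 8 bases on each side. They are the same 3 genes that stood higher with DOX, and a link between the matches and that rise was not tested.
Cdkn1b, UTR bases 404 to 410, miR-139-5p: ccatttgaACTGTAGaaaaatgg
Cdkn1b, UTR bases 607 to 613, miR-139-5p: gaattgctCTGTAGAccacgctg
Cdkn1a, UTR bases 114 to 120, miR-139-3p: aatttaaaCGTCTCCtgtatata
Cdkn1a, UTR bases 148 to 154, miR-139-3p: ctctcccaGTCTCCAaacttaaa
Cdkn1a, UTR bases 1220 to 1226, miR-139-3p: ccctccctGTCTCCActcagatt
Cdkn2d, UTR bases 413 to 419, miR-139-3p: aggccactGTCTCCAgccttact
Among 21020 genes, 19.5% held either match to miR-139-5p and 14.2% either match to miR-139-3p. The share with a match to any of the 2 strands, which the count of 3 of 7 members uses, was not computed. A match is a run of letters and not a shown target site. None of these letters were found in the 3′ UTRs of *Cdkn1c*, *Cdkn2a*, *Cdkn2b* or *Cdkn2c*, which at 264 to 755 bases are shorter than those of *Cdkn1a* (1334 bases), *Cdkn1b* (3439 bases) and *Cdkn2d* (907 bases).

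The promoter windows of the same 3 genes follow, from 250 bases before the RefSeq start site to 50 bases after it, since these genes moved in the same direction. Capitals mark the GC box (GGGCGG), the CCAAT box (CCAAT) and the p53 half-site, each searched on both strands.
Cdkn1a, upstream start, chr17:29090729-29091028, plus strand, GRCm38.p6: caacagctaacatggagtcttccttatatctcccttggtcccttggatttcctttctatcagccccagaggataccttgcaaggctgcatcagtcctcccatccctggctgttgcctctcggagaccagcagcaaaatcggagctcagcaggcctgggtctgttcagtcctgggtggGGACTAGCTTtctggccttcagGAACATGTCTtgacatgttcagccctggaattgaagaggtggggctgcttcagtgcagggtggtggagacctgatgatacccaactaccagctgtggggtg
Cdkn1b, chr6:134920151-134920450, plus strand, GRCm38.p6: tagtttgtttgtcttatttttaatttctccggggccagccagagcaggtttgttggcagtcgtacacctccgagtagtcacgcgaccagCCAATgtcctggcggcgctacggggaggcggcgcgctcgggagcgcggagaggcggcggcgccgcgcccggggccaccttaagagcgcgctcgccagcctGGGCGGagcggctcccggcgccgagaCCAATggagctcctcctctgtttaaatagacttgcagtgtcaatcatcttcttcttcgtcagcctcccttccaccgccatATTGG
Cdkn2d, chr9:21291160-21291459, minus strand, GRCm38.p6: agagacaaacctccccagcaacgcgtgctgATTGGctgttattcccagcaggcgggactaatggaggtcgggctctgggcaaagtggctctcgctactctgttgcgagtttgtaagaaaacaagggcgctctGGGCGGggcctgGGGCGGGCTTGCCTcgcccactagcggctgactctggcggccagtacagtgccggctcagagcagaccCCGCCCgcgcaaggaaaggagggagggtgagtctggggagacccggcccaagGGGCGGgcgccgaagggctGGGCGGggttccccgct
The *Cdkn1a* window held 2 p53 half-sites, at -73 to -64 and -51 to -42 from the start site. The *Cdkn2d* window held 1, at -102 to -93, whose first bases overlap the GC box at -106 to -101. Of 32851 promoter windows 8.36% held a p53 half-site. The *Cdkn2d* window also held 5 GC boxes and 1 CCAAT box, and the *Cdkn1b* window 1 GC box and 3 CCAAT boxes, against 35.7% of all windows with a GC box and 37.4% with a CCAAT box. Members not called higher held these boxes too: GC boxes lay in windows of *Cdkn2a*, *Cdkn2b* and *Cdkn2c*, and CCAAT boxes in windows of *Cdkn2a* and *Cdkn2c*. Further searches were made for the TATA box (TATAAA, in 13.6% of windows), the E-box (CACGTG, 7.15%), a FOXO core (GTAAACA, 3.65%), E2F sites (TTTGGCGC, TTTCCCGC, TTTCGCGC or TTTGCCGC, 2.26%) and CEBP sites (TTGCGCAA, TTGCACAA or TTGTGCAA, 1.19%). These letters were not in the 3 windows shown. A second *Cdkn1a* start, at chr17:29093519-29093818, held 2 GC boxes and no p53 half-site, and over the 9 windows found for 6 members an E2F site was matched only in 1 of the 2 *Cdkn2a* windows, at -99 to -92 (TTTCCCGC).

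Libraries were sequenced to between 35133308 and 47089725 counted reads. The row of *Mir139* was at 0 counts in all 10 libraries, so these counts do not show the induced microRNA. Clone 3 stood apart in the size of its response. Over the 19223 genes tested, the median absolute log2 difference between its DOX and untreated library was 0.21, against 0.38 in clone 1 and 0.39 in clone 2, and 0.13 and 0.15 in the ieGFP cultures at 48 h and 72 h. Myeloid progenitor markers summed to between 2336 and 5379 CPM (reads of a gene scaled to a common library total) over all libraries. Of the 8 genes in that list 7 had at least 10 counts in total, and *Itgam* was at 0 in untreated MLL-AF9-ieGFP. The T cell list (*Cd3e*, *Cd3d*, *Cd3g*, *Cd8a*, *Cd4*) summed to 0.25 to 0.69 CPM and the stromal and endothelial list to 18.0 to 38.6 CPM, and *Ms4a1* of B cells and *Ppbp* of megakaryocytes were at 0.

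Before DOX, the question was which inhibitor dominated. Levels were compared between genes as CPM normalised with TMM factors and divided by exon length in kb. In untreated MLL-AF9-i139, *Cdkn2a* had 15.2 ± 9.27 and *Cdkn1a* 13.0 ± 1.47 CPM per kb (mean ± SD, n = 3 clones). *Cdkn2b* and *Cdkn2d* followed with 6.87 ± 4.20 and 6.71 ± 1.43 CPM per kb. *Cdkn1b* had 2.74 ± 0.26, *Cdkn1c* 1.6 ± 0.22 and *Cdkn2c* 0.29 ± 0.04 CPM per kb. The ranges of *Cdkn2a* and *Cdkn1a* overlapped, as did those of *Cdkn2b* and *Cdkn2d*, so neither pair has an order beyond its spread. The range of *Cdkn2a* (4.82 to 22.7 CPM per kb) also overlapped those of *Cdkn2b* (3.57 to 11.6) and *Cdkn2d* (5.18 to 8.00). By these ranges, its place above these genes is therefore not beyond its spread either. Within each of the 10 libraries, however, *Cdkn2a* stood above *Cdkn2b*, by 1.35-fold to 3.31-fold in the 3 untreated clones. Its place above *Cdkn2d* did not hold in untreated clone 3, where *Cdkn2a* had 4.82 and *Cdkn2d* 8.00 CPM per kb. The other neighbours in this order did not overlap, and *Cdkn2c* was the lowest of the 7 genes in all 10 libraries.

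Of the 2 genes with the highest untreated means, *Cdkn1a* varied less between the clones than *Cdkn2a*. The level of *Cdkn1a* in the 3 untreated clones was 14.7, 12.2 and 12.1 CPM per kb, while that of *Cdkn2a* was 22.7, 18.0 and 4.82 CPM per kb. *Cdkn2a* was thus the highest inhibitor in clones 1 and 2, and *Cdkn1a* in clone 3. In untreated MLL-AF9-ieGFP, *Cdkn1a* was again the highest, with 12.1 CPM per kb at 48 h and 12.8 at 72 h, against 8.66 and 10.97 for *Cdkn2a*. Which of the 2 came first also turned on the length used. With the longest annotated transcript in place of all exon bases, the untreated MLL-AF9-i139 mean was 22.2 CPM per kb for *Cdkn1a* and 19.9 for *Cdkn2a*. The *Cdkn2a* row sums the transcripts that start at the p16Ink4a and the p19Arf exon, and gene counts cannot separate them.

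**Figure D1:**
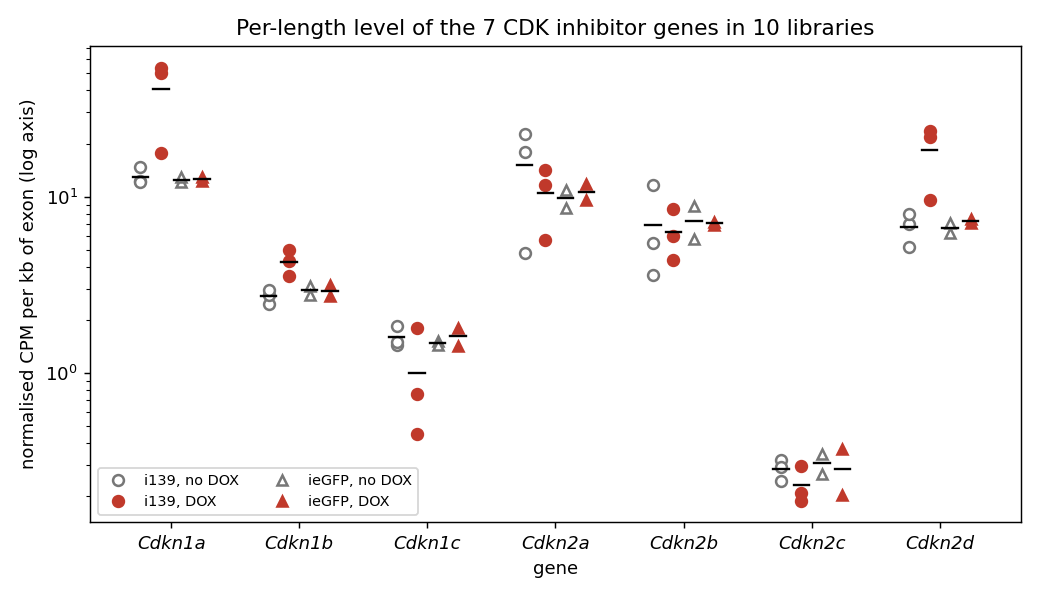
Per-length level (normalised CPM per kb of exon, log axis) of the 7 genes, one point per library, with untreated MLL-AF9-i139 and MLL-AF9-ieGFP as open circles and triangles, their DOX cultures filled, and a short line at each group mean. *Cdkn1a*, *Cdkn1b* and *Cdkn2d* of MLL-AF9-i139 with DOX lie above all untreated points of the same gene. *Cdkn2a* and *Cdkn2b* are spread widely over the untreated clones, and *Cdkn2c* lies lowest.

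*Cdkn1a*, on chromosome 17 (chr17:29090976-29100727, plus strand, GRCm38), encodes p21, the general CDK inhibitor and classical p53 target. Its counts were 2548, 1902 and 1695 in untreated clones 1, 2 and 3 and 9167, 7022 and 2484 with DOX, which is 52.2, 43.4 and 43.0 CPM without and 191, 179 and 63.1 CPM with DOX. All 3 treated libraries stood above all 3 untreated ones, but clone 3 rose far less. The ratio of DOX to untreated was 3.67 in clone 1, 4.12 in clone 2 and 1.47 in clone 3. Without a clone term, the log2 fold change was 1.66 (SE 0.36, n = 3 clones) with an adjusted p of 0.10 in edgeR's quasi-likelihood test. A clone block gave 1.52 (SE 0.27) and an adjusted p of 0.0271. An opposite-strand gene shares 273 of the 3553 exon bases of *Cdkn1a*, and whether strand was used in counting is not given in the sources used here.

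*Cdkn1b* (chr6:134920401-134925513, plus strand) encodes p27, the CDK2 inhibitor known from quiescent cells. Its level was 11.2, 12.7 and 13.5 CPM in untreated clones 1, 2 and 3 and 19.7, 22.6 and 16.2 CPM with DOX. Here too the treated libraries all stood above the untreated ones, by 1.76-fold, 1.78-fold and 1.20-fold in the 3 clones. The log2 fold change was 0.66 (SE 0.16), with an adjusted p of 0.114 in edgeR's quasi-likelihood test without a block, and 0.65 (SE 0.14) with an adjusted p of 0.0355 with the clone block. The rise of *Cdkn1b* was smaller than that of *Cdkn1a* within each clone.

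*Cdkn1c* (chr7:143458339-143461050, minus strand) encodes p57, the imprinted member of the family and a marker of quiescent hematopoietic stem cells. Its counts were low, 144, 135 and 149 in untreated clones 1, 2 and 3 and 44, 61 and 144 with DOX. In CPM this was 2.95, 3.08 and 3.78 without and 0.92, 1.55 and 3.66 with DOX. Clones 1 and 2 had 0.31 and 0.50 times the untreated level, and clone 3 had 0.97 times, so the groups overlapped. The log2 fold change was -0.67 (SE 0.45, adjusted p = 0.434 by edgeR) without a block and -0.85 (SE 0.30, adjusted p = 0.109) with it. Without clone 3 it was -1.28 (SE 0.30), with an adjusted p of 0.0216 by edgeR. Of its 2039 exon bases 625 are shared with *Gm44732* on the other strand, which was at 0 counts in all libraries.

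*Cdkn2d* (chr9:21288410-21291407, minus strand) encodes p19Ink4d, an inhibitor of CDK4 and CDK6. Its counts were 398, 480 and 497 in untreated clones 1, 2 and 3 and 1651, 1462 and 596 with DOX. In CPM this was 8.16, 10.9 and 12.6 without and 34.5, 37.2 and 15.1 with DOX. The treated libraries all stood above the untreated ones, and the rise was 4.23-fold, 3.40-fold and 1.20-fold. The log2 fold change was 1.47 (SE 0.33, adjusted p = 0.105 by edgeR) without a block and 1.4 (SE 0.33, adjusted p = 0.0399) with the clone block. *Cdkn2d* was the only INK4 gene whose groups did not overlap.

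*Cdkn2a* (chr4:89274471-89294653) and *Cdkn2b* (chr4:89306299-89311039) lie 11645 bases apart on the minus strand of chromosome 4. *Cdkn2a* was at 26.6, 21.04 and 5.65 CPM in untreated clones 1, 2 and 3 and at 16.5, 13.6 and 6.63 CPM with DOX. *Cdkn2b* was at 16.1, 7.55 and 4.97 CPM without DOX and at 11.8, 8.37 and 6.10 CPM with it. For both genes the clones differed more from each other than the treatments did. Untreated clone 1 exceeded untreated clone 3 by 4.71-fold in *Cdkn2a* and by 3.25-fold in *Cdkn2b*, against at most 1.54-fold between the highest and lowest clone in the other 5 genes. Among 10533 genes with a mean of at least 100 counts in the untreated clones, 0.62% had a ratio as large as that of *Cdkn2a* and 1.20% one as large as that of *Cdkn2b*, with a median ratio of 1.18. This spread was singled out after its values were seen and was not tested.

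With DOX, *Cdkn2a* was at 0.62 times the untreated level in clone 1, 0.65 times in clone 2 and 1.17 times in clone 3. The log2 difference was -0.52 (SE 0.53, adjusted p = 0.615 by edgeR) without a block, -0.38 (SE 0.18, adjusted p = 0.21) with it, and -0.64 (SE 0.16, adjusted p = 0.0286) without clone 3. *Cdkn2b* was at 0.73, 1.11 and 1.23 times the untreated level in the 3 clones, with a log2 difference of -0.11 (SE 0.42, adjusted p = 0.91 by edgeR). Its sign was not stable, since without clone 1 the value was 0.21. The neighbouring *Mtap*, the methylthioadenosine phosphorylase gene of the same locus, was at 97.5 ± 1.07 CPM in untreated and 55.9 ± 17.8 CPM in DOX libraries (SD, n = 3), with a log2 fold change of -0.84 (SE 0.15) and an adjusted p of 0.0272 by edgeR with the clone block. *Mtap* did not share the low level of *Cdkn2a* and *Cdkn2b* in untreated clone 3. The other listed neighbours, *Dmrta1* and *Ifne*, were at 0 in all libraries.

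*Cdkn2c* (chr4:109660876-109667189, minus strand) encodes p18, which limits the renewal of hematopoietic stem cells. It had 32, 38 and 31 counts in untreated clones 1, 2 and 3 and 38, 20 and 22 counts with DOX. The groups overlapped, and the log2 difference was -0.29 (SE 0.29, adjusted p = 0.61 by edgeR). The value was -0.63 without clone 1 and -0.07 without clone 2.

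**Figure D2:**
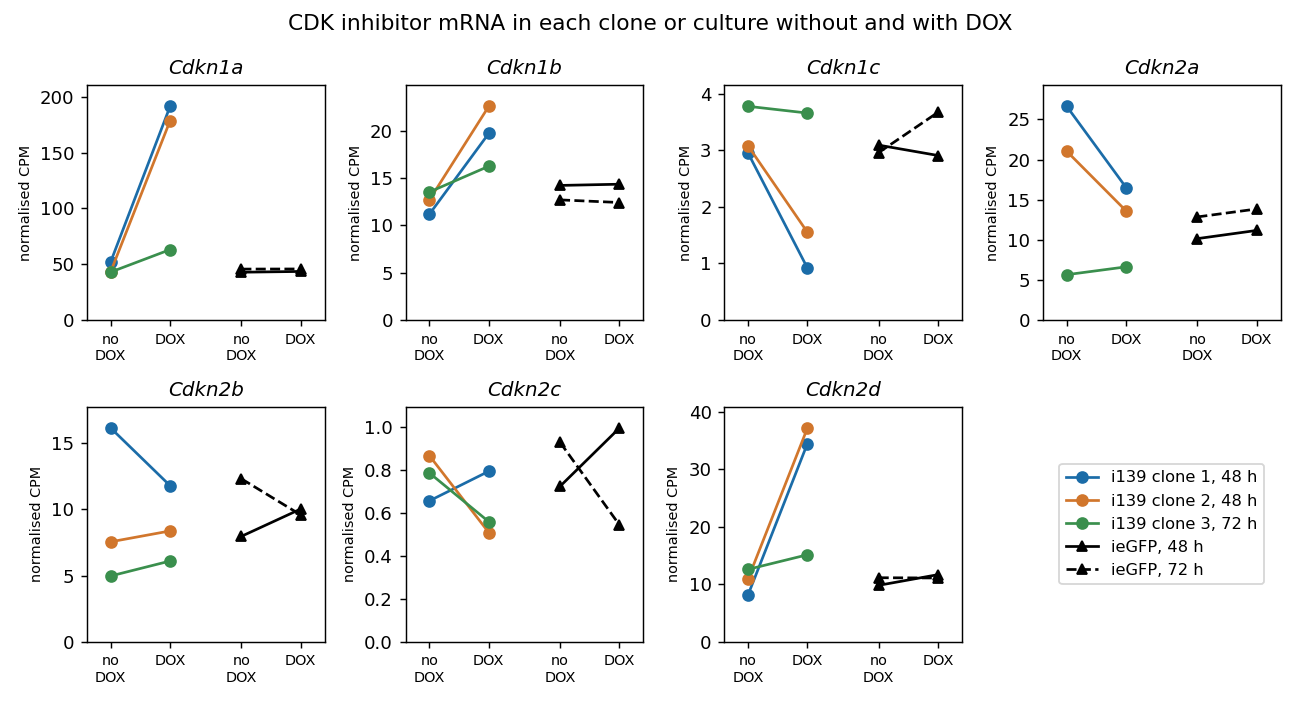
Normalised CPM of each gene (vertical axis, from 0) without and with DOX, with lines joining the libraries of one clone or culture: the 3 MLL-AF9-i139 clones in colour on the left of each panel, and the MLL-AF9-ieGFP cultures at 48 h and 72 h in black on the right. *Cdkn1a*, *Cdkn1b* and *Cdkn2d* rise in all 3 clones, steeply in clones 1 and 2 and less in clone 3, while the DOX to untreated ratio of these genes in ieGFP is 0.98 to 1.19, the highest being *Cdkn2d* at 48 h.

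Read over the whole table, the test of MLL-AF9-i139 gave different counts with and without the clone term. Without it, 0.0572% of the 19223 genes were called higher with DOX at an adjusted p under 0.05 by edgeR, and 0 of the 7 members were called, with 3 at an unadjusted p under 0.05, all higher with DOX, against 11.4% of all genes. With the clone block, 7.05% of genes were called higher and 5.33% lower, and 3 of 7 members (*Cdkn1a*, *Cdkn1b* and *Cdkn2d*) were called higher and 0 lower. DESeq2 without a block called the same 3 members higher, against 5.03% of all genes. On non-overlap of the libraries, 3 of 7 members were higher with DOX in all treated libraries, against 12.0% of all genes, and 0 of 7 were lower, against 12.8%.

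The fits that leave out a clone were made without a block, and there the calls changed with clone 3. Without it, 11.6% of 18359 genes were called higher and 10.1% lower, and the members called by edgeR were *Cdkn1a* (log2 fold change 1.97, SE 0.11, adjusted p = 0.000142), *Cdkn2d* (1.93, SE 0.16, adjusted p = 0.000383) and *Cdkn1b* (0.84, SE 0.14, adjusted p = 0.00605) as higher, and *Cdkn1c* and *Cdkn2a* as lower. Without clone 1 or without clone 2, the adjusted p of *Cdkn1a*, *Cdkn1b* and *Cdkn2d* was 0.68 to 0.74. Over the 10 alternative fits, the direction of these 3 genes was upward in all, and *Cdkn1a* and *Cdkn2d* were called in 5 and *Cdkn1b* in 4.

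**Figure D3:**
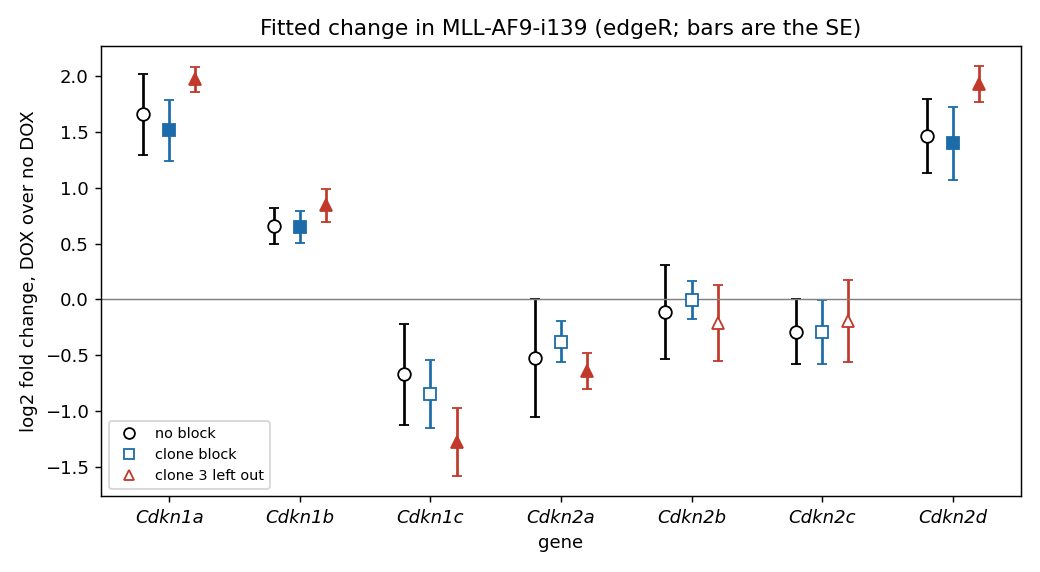
Log2 fold change of DOX over untreated MLL-AF9-i139 (vertical axis) for each gene from edgeR without a block, with the clone block and with clone 3 left out. Bars are the standard error and filled symbols have an adjusted p under 0.05. *Cdkn1a*, *Cdkn1b* and *Cdkn2d* lie above 0 in all 3 fits, and *Cdkn1c* and *Cdkn2a* are filled, below 0, only where clone 3 is left out.

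In MLL-AF9-ieGFP, which asks what DOX and eGFP do without *miR-139*, none of the 7 genes was called. *Cdkn1a* was at 42.8 and 45.6 CPM without and at 43.5 and 45.8 CPM with DOX, at 48 h and 72 h, a log2 difference of 0.01 (SE 0.38). *Cdkn1b* was at 14.2 and 12.7 CPM without and 14.3 and 12.4 CPM with DOX, a difference of -0.01 (SE 0.18). *Cdkn2d* was at 9.82 and 11.1 CPM without and 11.7 and 11.1 CPM with DOX, a difference of 0.12 (SE 0.35). The ratio of DOX to untreated in these pairs was 0.98 to 1.19, and in none of the 3 genes did both cultures stand above both untreated ones.

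Of the other 4 genes in this control clone, *Cdkn2a* was slightly higher with DOX at both times, and the rest went opposite ways at 48 h and 72 h. *Cdkn1c* had 141 and 102 counts without and 114 and 135 counts with DOX, at 48 h and 72 h (log2 difference 0.12, SE 0.48). *Cdkn2a* was at 10.1 and 12.9 CPM without and at 11.2 and 13.8 CPM with DOX (0.12, SE 0.57), *Cdkn2b* at 7.96 and 12.3 without and at 10.0 and 9.57 with DOX (-0.05, SE 0.47), and *Cdkn2c* had 33 and 32 counts without and 39 and 20 with DOX (-0.09, SE 0.37). All adjusted p-values were 1 by edgeR, and 0% of 20269 genes were called. By an unadjusted p under 0.05, and by DESeq2, 0 of 7 members passed as well, against 259 and 1 of the 20269 genes.

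The difference between the constructs was tested as the interaction of DOX with the construct. The log2 change with *miR-139* induction exceeded that with eGFP induction by 1.63 (SE 0.49) for *Cdkn1a*, 1.33 (SE 0.45) for *Cdkn2d* and 0.66 (SE 0.24) for *Cdkn1b*. Each had an adjusted p of 0.527 by edgeR without a block, and of 0.0972, 0.165 and 0.133 with the clone or culture time as a block. For *Cdkn1c* and *Cdkn2a* the differences were -0.80 (SE 0.63) and -0.66 (SE 0.74). Thus 0 of 7 members passed, with 0.00493% of all genes called higher, and 0 by DESeq2. At an unadjusted p under 0.05 there were 3, all higher, against 4.96% of all genes. Without clone 3, 5.74% of 19753 genes passed by edgeR as higher, and 878 genes passed as lower. The members that passed as higher were *Cdkn1a* (1.97, adjusted p = 4.14e-05), *Cdkn2d* (1.82, adjusted p = 0.000709) and *Cdkn1b* (0.86, adjusted p = 0.0213). *Cdkn1c* (-1.39, adjusted p = 0.0454) passed as lower. The ieGFP arm is 1 clone, so the construct and that clone cannot be told apart.

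Before DOX, 0 of 7 members differed between the constructs by edgeR, with 0 at an unadjusted p under 0.05 and 0 by DESeq2. Of all 20269 genes, 0.0444% were called by edgeR, 503 had an unadjusted p under 0.05 and 44 were called by DESeq2. *Cdkn2a* was at 0.63 on the log2 scale, i139 over ieGFP (SE 0.53, adjusted p = 1 by edgeR), with the ieGFP cultures lying between i139 clones 2 and 3. It moved with single clones, to 0.22 (SE 0.53) without clone 1 and to 1.03 (SE 0.18, adjusted p = 0.0773) without clone 3.

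The makeup of the inhibitor pool shifted with these changes. The summed per-length level of the 7 genes was 58.4, 47.2 and 33.6 CPM per kb in untreated clones 1, 2 and 3 and 103, 97.4 and 43.0 with DOX. The share of *Cdkn1a* in that sum went from 25.2% to 52.1% in clone 1, from 25.9% to 51.6% in clone 2 and from 36.0% to 41.3% in clone 3. The share of *Cdkn2a* went from 39.0% to 13.6%, from 38.1% to 11.9% and from 14.4% to 13.2%. With DOX, *Cdkn1a* was the highest gene and *Cdkn2d* the next in each clone, although their ranges over the clones overlapped. *Cdkn1a* exceeded *Cdkn2d* by 1.85-fold to 2.46-fold within a clone.

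By family, the CIP/KIP genes made up 31.9%, 34.99% and 50.3% of the summed level in untreated clones 1, 2 and 3 and 56.7%, 57.5% and 53.8% with DOX. In the ieGFP clone they made up 44.4% and 38.5% without and 40.7% and 40.1% with DOX. The summed INK4 level was 39.8, 30.7 and 16.7 CPM per kb without and 44.8, 41.4 and 19.9 with DOX, and its parts shifted in clones 1 and 2: *Cdkn2a* and *Cdkn2b* held 86.4%, 76.3% and 50.3% of it without DOX and 50.4%, 42.5% and 50.5% with DOX, and nearly all of the remainder was *Cdkn2d*. Shares of a fixed sum move together, so a fall in one share need not be a fall in level.

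**Figure D4:**
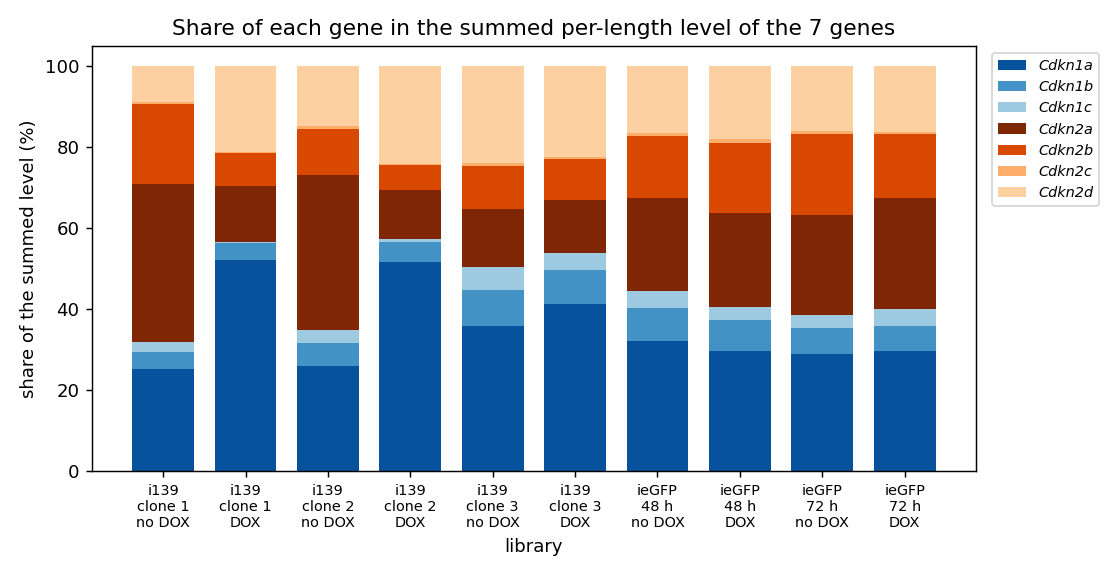
Share (percent, stacked) of each gene in the summed per-length level of the 7 genes in each of the 10 libraries, with CIP/KIP genes in blue and INK4 genes in brown to orange. *Cdkn1a* takes 52.1% and 51.6% in the DOX libraries of clones 1 and 2, and the 4 ieGFP bars look alike, with *Cdkn1a* between 29.0% and 32.1%.

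The partners of the inhibitors were read from lists of pathway genes, by edgeR with the clone block, where the median log2 fold change over all genes was 0.01. In that fit 7.05% of all genes were called higher and 5.33% lower. Its values are averages over the clones, and each called pathway gene named below changed least in clone 3. *Foxo3*, for example, changed by 1.22, 1.08 and 0.34 on the log2 scale in clones 1, 2 and 3. Of the 131 genes tested from all lists, those of cell type markers included, 15 were called higher and 14 lower with the block, 0 by edgeR without it on the same genes and all 3 clones, and 13 higher and 9 lower by DESeq2 without it. Of 10 CDKs and cyclins bound by the inhibitors 1 rose and 3 fell, with a median of -0.37. *Cdk6* and *Cdk4*, the kinases that INK4 proteins bind, fell by 0.49 (SE 0.10, adjusted p = 0.0289) and 0.48 (SE 0.10, adjusted p = 0.0306) on the log2 scale. *Ccna2*, cyclin A2 of S phase, also fell by 0.49 (SE 0.09), whereas *Ccnd3*, a cyclin partner of CDK4 and CDK6, rose by 0.71 (SE 0.16). *Cdk2* had a value of 0.14 (SE 0.09, adjusted p = 0.331). Of 11 pocket proteins and E2F factors 1 rose and 2 fell (median -0.22). *Rb1*, the retinoblastoma gene, rose by 0.52 (SE 0.12), and the E2F family genes *E2f6* and *E2f4* fell by 0.46 (SE 0.10) and 0.41 (SE 0.09).

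Among genes that turn over or control the inhibitors, *Skp2*, the ubiquitin ligase receptor for p27, fell by 0.44 (SE 0.10, adjusted p = 0.0413 by edgeR with the block) and was the only one called of 10 ligase genes tested. Of 18 activators of CDK inhibitor transcription 3 rose and 0 fell (median 0.27): *Foxo3*, a FOXO factor known to drive *Cdkn1b*, by 0.89 (SE 0.17), *Irf1*, an interferon regulatory factor, by 0.74 (SE 0.16), and *Cebpe*, a factor of late granulocyte maturation, by 0.57 (SE 0.12). Of 15 repressors 0 rose and 2 fell (median -0.07): *Myc*, a repressor of *Cdkn1a* and *Cdkn2b*, by 0.46 (SE 0.10), and *Ezh2*, the Polycomb methyltransferase, by 0.39 (SE 0.09). The Polycomb gene *Bmi1* had a value of -0.18 (SE 0.09, adjusted p = 0.211).

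Of 14 p53 targets other than *Cdkn1a* 2 rose and 0 fell (median 0.19), namely *Sesn2*, a stress-induced sestrin, by 0.78 (SE 0.17) and *Zmat3*, an RNA-binding p53 target, by 0.57 (SE 0.10). *Sesn2* was higher with DOX in the ieGFP clone too, by 0.22 at 48 h and 0.44 at 72 h on the log2 scale, without a call. *Trp53* itself had a value of -0.03 (SE 0.08, adjusted p = 0.833 by edgeR with the block) and *Mdm2*, the p53 ubiquitin ligase, 0.23 (SE 0.11, adjusted p = 0.21). In clone 3 the value of *Mdm2* was -0.07.

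Of 16 proliferation markers 0 rose and 4 fell (median -0.30). Their summed level was 3951 to 4233 CPM in the untreated clones and 3219 to 3778 CPM with DOX. *Rrm2*, a ribonucleotide reductase subunit, fell by 0.68 (SE 0.10), and the replicative helicase genes *Mcm6* and *Mcm4* fell by 0.40 (SE 0.09) and 0.33 (SE 0.09). *Mki67*, which marks cycling cells, had a value of 0.00 (SE 0.09, adjusted p = 0.983 by edgeR with the block). Of the 5 tested neighbours of *Cdkn1c* in its imprinted domain, *Cd81*, a tetraspanin gene, rose by 0.74 (SE 0.11) and 0 fell, and 3 of the 5 had values below 0 (median -0.04).

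Myeloid marker lists were read in the same fit. Of 7 myeloid progenitor genes tested 3 rose and 0 fell, and 2 of the 7 had values below 0 (median 0.46). The 3 were *Cd33*, a myeloid surface lectin (2.2, SE 0.42), *Mpo*, myeloperoxidase (1.41, SE 0.13) and *Fcgr3*, an Fc receptor (1.22, SE 0.26). Of 8 neutrophil genes 2 rose and 0 fell, and 2 of the 8 had values below 0 (median 0.34). The 2 called were *Cxcr2*, the chemokine receptor of mature neutrophils (4.02, SE 0.60) and *Ngp*, a secondary granule protein (1.35, SE 0.14). In the ieGFP clone, *Mpo* was higher with DOX by 0.43 at 48 h and 0.53 at 72 h on the log2 scale, *Ngp* by 0.30 and 0.24, and *Cxcr2* by 0.43 and 0.21, without a call. The summed neutrophil level was 223, 164 and 130 CPM in untreated clones 1, 2 and 3 and 361, 337 and 193 CPM with DOX. In the ieGFP clone it was 296 CPM at 48 h and 378 at 72 h without DOX and 283 and 399 CPM with it, so both untreated ieGFP cultures stood above all 3 untreated i139 clones. Of 5 monocyte genes 1 rose (*Csf1r*, the CSF1 receptor, 1.26, SE 0.23) and 1 fell (*Ccr2*, a monocyte chemokine receptor, -1.50, SE 0.23). Both were low, with untreated means of 1.21 CPM for *Csf1r* and 2.03 CPM for *Ccr2*. In clones 1, 2 and 3, *Mpo* changed by 1.66, 1.02 and 1.53 on the log2 scale and *Ngp* by 1.00, 1.72 and 1.27. *Ccr2* changed by -1.03, -1.70 and -1.64. These markers thus did not change least in clone 3, whereas *Cd33*, *Fcgr3*, *Cxcr2* and *Csf1r* did. The summed level of the monocyte list was 12.4, 10.5 and 10.7 CPM without and 28.0, 18.7 and 10.4 CPM with DOX. The macrophage gene *C1qa* was at 0 in all libraries, while *C1qb* was at 0 in every group except MLL-AF9-i139 with DOX. In bulk RNA, more cells of a stage and more RNA per cell cannot be told apart. The part of these markers in the changes of *Cdkn1a*, *Cdkn1b* and *Cdkn2d* was not tested.

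The other cell type lists follow. Of 2 megakaryocyte genes tested, *Gp9*, a platelet glycoprotein gene, was called higher, and the list was at 1.39 to 2.25 CPM without and 1.83 to 2.98 CPM with DOX in MLL-AF9-i139. The B cell list was at 1.03 to 1.29 and 0.79 to 1.22 CPM, the erythroid list at 2.30 to 2.69 and 1.69 to 2.29 CPM, and the stromal and endothelial list at 22.4 to 29.7 and 21.7 to 38.6 CPM without and with DOX. None of the genes of these 3 lists or of the T cell list was called.

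The genes with the most similar profiles were sought among 14662 genes, as the smallest root mean squared difference of centred log2 CPM over the 10 libraries. For *Cdkn1a* they were *Ptges* (0.14) and *Wdfy4* (0.14), set against a spread of *Cdkn1a* about its own mean of 0.81. For *Cdkn2d* they were *Cdh23* (0.16) and *Tnfaip8l2* (0.16), with a spread of 0.70. For *Cdkn1b*, *Mrpl44* (0.08) and *Sh2b1* (0.08) lay nearest, with a spread of 0.30, and for *Cdkn1c* they were *Ankrd13b* (0.12) and *Nme4* (0.17), with a spread of 0.60. *Cdkn2b* was followed most closely by *Olfr544* (0.18) and *Cpne8* (0.22), with a spread of 0.47, and *Cdkn2c* by *Amd-ps1* (0.15) and *Gata3* (0.18), with a spread of 0.30. For *Cdkn2a* they were *Gm5711* (0.31) and *Gm11605* (0.34), with a spread of 0.65. These are descriptions over 10 libraries, of which those of 1 clone are related.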

How the data were processed

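Total RNA was depleted of ribosomal RNA and sequenced. Per the methods of the study, the authors mapped reads to GRCm38 with STAR 2.5.3e and counted them per gene with featureCounts 1.6.0 on a GENCODE annotation. The deposited tables hold raw counts, and the 2 tables have the same values for the 10 libraries. A further 14 columns of other samples were not used. Totals were 35133308 to 47089725 counts per library. The members and gene lists were chosen with earlier results of these data known. Nothing states that replicate libraries came from separate mice. In the MLL-AF9-i139 fit without a block, p-values measure the spread between clones, and with the block the spread of the DOX response between clones. The fit of all 4 groups shares 1 estimate of spread over the i139 clones and the 2 times of the ieGFP clone. There the ieGFP SE of *Cdkn1a* was 0.38, and 0.10 with i139 clone 3 left out.

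Genes with at least 10 counts in total were tested with edgeR 4.0.16 in R 4.3.3 (TMM, quasi-likelihood, two-sided, Benjamini-Hochberg over all genes tested), in MLL-AF9-i139 on 6 libraries and, for MLL-AF9-ieGFP, the interaction and the untreated contrast, in 1 fit of 4 groups. DESeq2 1.42.0 was an alternative. The labels give the same clone with and without DOX. Deviations from the group means correlated at 0.378, 0.285 and 0.411 within clones 1, 2 and 3, which goes with the labelled pairs. Between clones they correlated at -0.04 to -0.31. These negative values add nothing, since deviations from a group mean sum to 0 over the clones. Values with the clone as a replicate block are given beside those without. Log2 values of single clones use a prior count of 2. Exon lengths and 3′ UTRs were taken from GENCODE M21 (GRCm38), newer than the annotation used for counting, and 52403 of 52550 identifiers matched. Genes other than the members were named by rule: at most 3 per list with the largest change among those called with the block, with an average log2 CPM of at least 0 and the same direction in 3 clones, 11 named whatever they did, and the 2 nearest profiles per member. *Gp9*, *Dmrta1* and *Ifne*, and the marker genes given at 0, fall outside this rule and were chosen after their values were seen. Some of the fits, not all, were first checked on simulated counts with 200 changed genes.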

Additional observations from a re-analysis of the deposited data

How the results depend on the processing

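The rise of *Cdkn1a*, *Cdkn1b* and *Cdkn2d* kept its direction in MLL-AF9-i139 under every alternative, but its call depended on the fit. DESeq2 called 1556 genes and 3 members (*Cdkn1a* 1.66, *Cdkn1b* 0.66 and *Cdkn2d* 1.46 on the log2 scale), the replicate block 2381 genes and 3 members (1.52, 0.65 and 1.4), and 1 fit of all 10 libraries 1234 genes and 3 members (1.64, 0.65 and 1.45), against 12 genes and 0 members in the edgeR fit without a block. With genes of at least 1 count tested, 562 genes and 2 members were called (*Cdkn1a* 1.67 and *Cdkn2d* 1.48). With filterByExpr 6 genes were called and with at least 10 counts in every library 2, with no member. Leaving out 1 clone gave 0 to 3981 genes and 0 to 5 members, with *Cdkn1a* at 1.43 to 1.97, *Cdkn1b* at 0.55 to 0.84, *Cdkn2d* at 1.16 to 1.93, *Cdkn1c* at -1.28 to -0.40, *Cdkn2a* at -0.64 to -0.40 *Cdkn2b* at -0.22 to 0.21 and *Cdkn2c* at -0.63 to -0.07, of which the highest counts and rises were without clone 3. The cause of these differences was not tested. In MLL-AF9-ieGFP, DESeq2 called 1 gene, not a member. With 1 of its times left out, *Cdkn1a* was at -0.0111 to 0.0272, *Cdkn1b* at -0.0463 to 0.0176, *Cdkn1c* at -0.0835 to 0.30, *Cdkn2b* at -0.38 to 0.34, *Cdkn2c* at -0.78 to 0.46 and *Cdkn2d* at -0.0203 to 0.25. The interaction held 1 gene in the edgeR fit, 83 with DESeq2, 38 with the replicate block, 0 with filterByExpr and 0 to 2011 with a clone or time left out, with 0 to 4 members. The untreated contrast held 9, 44 with DESeq2 and 0 to 30 with a clone or time left out, with *Cdkn2a* at 0.22 to 1.03 and 0 members called. The share of *Cdkn1a* in untreated MLL-AF9-i139 was 29.0% and moved to 37.5% with the longest transcript as length. Another length, the exon bases not shared with other genes, was chosen after seeing the data and kept the order of the 7 genes.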
